A study of Homo sapiens with 24 samples.

Results

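The genes described here are 9 genes of antigen presentation: HLA-B, HLA-C and HLA-E, B2M, TAP1, TAPBP, CD74, HLA-DRA and CIITA. They were taken by symbol from a list that was chosen with earlier results of these data known, and so was not blind to them. All 9 were found among the 25728 gene symbols of the count files. RNA was sequenced from TF-1, UCSD-AML1 and UT-7, 3 human lines of acute myeloid leukemia that the series describes as driven by EVI1, a transcription factor encoded by MECOM. Each line was cultured for 24 h with 3 mM cyclocreatine, a creatine analog that creatine kinases phosphorylate, or with vehicle, which gave 6 groups of 4 libraries and 24 libraries in all. The series is titled for targeting the creatine kinase pathway, and the comparison of treated with vehicle libraries asks what cyclocreatine did to transcript levels in each line. TF-1 is an erythroleukemia line and UT-7 a megakaryoblastic leukemia line, both kept alive by added growth factor, and UCSD-AML1 has a chromosome 3 rearrangement that involves MECOM. Each line derives from 1 patient's cells and stands for that line alone. No allele was introduced or deleted in any group. Whether the replicates of a group were separate cultures is not in the labels, so p-values speak to the spread among these libraries only.

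HLA class I molecules are made of a heavy chain (HLA-B, HLA-C, HLA-E and others) and the light chain beta-2 microglobulin, encoded by B2M. Peptides cut by the proteasome are carried into the endoplasmic reticulum by the transporter TAP1-TAP2, and tapasin, encoded by TAPBP, holds the empty class I molecule at the transporter while it is loaded. HLA class II molecules such as HLA-DR, whose alpha chain is HLA-DRA, are guided by the invariant chain CD74 and load peptides in endosomes, and CIITA is the coactivator that switches class II genes on. Class I molecules present peptides to CD8+ T cells and class II molecules to CD4+ T cells. Loss of either is a known route by which leukemia cells escape T cells.

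The stretches just before the gene starts are shown because HLA genes and B2M are known to share promoter elements, and TAP1 moved otherwise than the heavy chains in the results below. RefSeq windows of 250 bases before the start (GRCh38.p14, given 5′ to 3′ on the gene's strand) were found for 6 of the 9 genes. HLA-E, HLA-DRA and CIITA are named only. Their places are chr6:31357180-31357429 for HLA-B, chr6:31272093-31272342 for HLA-C, chr6:32853705-32853954 for TAP1, chr6:33314079-33314328 for TAPBP and chr5:150412911-150413160 for CD74, all on the minus strand, and chr15:44711267-44711516 for B2M on the plus strand. TAP1 has a further start in the table, and the one farther upstream was used. Capitals mark letters that match, on either strand, an interferon regulatory factor core (AANNGAAA), the kappaB consensus, the Y box core (ATTGG, the inverted CCAAT box) or an X2-type core (TGACG). In CD74 and HLA-B overlapping kappaB matches form 1 run of capitals, and in B2M, TAP1 and TAPBP overlapping interferon regulatory factor cores do.
HLA-B: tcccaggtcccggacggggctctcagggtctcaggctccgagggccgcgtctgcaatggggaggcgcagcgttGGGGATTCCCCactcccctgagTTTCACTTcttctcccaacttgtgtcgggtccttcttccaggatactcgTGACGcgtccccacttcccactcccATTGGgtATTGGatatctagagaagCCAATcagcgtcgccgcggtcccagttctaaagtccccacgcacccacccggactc
HLA-C: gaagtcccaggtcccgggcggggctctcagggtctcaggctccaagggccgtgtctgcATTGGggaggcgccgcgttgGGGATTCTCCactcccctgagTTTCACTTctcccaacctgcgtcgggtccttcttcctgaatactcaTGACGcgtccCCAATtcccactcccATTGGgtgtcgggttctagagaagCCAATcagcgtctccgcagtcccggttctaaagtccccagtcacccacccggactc
B2M: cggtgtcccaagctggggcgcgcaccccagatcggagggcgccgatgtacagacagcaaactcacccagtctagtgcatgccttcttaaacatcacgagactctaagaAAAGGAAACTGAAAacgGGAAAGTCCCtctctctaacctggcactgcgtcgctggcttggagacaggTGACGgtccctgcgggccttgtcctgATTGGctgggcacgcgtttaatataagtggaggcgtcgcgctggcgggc
TAP1: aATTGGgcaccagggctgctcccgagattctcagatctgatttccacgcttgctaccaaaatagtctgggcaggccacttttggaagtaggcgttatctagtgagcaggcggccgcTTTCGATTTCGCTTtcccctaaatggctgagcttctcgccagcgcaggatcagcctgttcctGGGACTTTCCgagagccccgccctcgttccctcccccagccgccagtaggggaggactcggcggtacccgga
TAPBP: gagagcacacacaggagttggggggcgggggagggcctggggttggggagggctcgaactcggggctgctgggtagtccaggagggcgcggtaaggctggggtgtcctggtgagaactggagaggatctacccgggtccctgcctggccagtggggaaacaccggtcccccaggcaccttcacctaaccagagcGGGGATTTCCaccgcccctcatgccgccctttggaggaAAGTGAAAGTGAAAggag
CD74: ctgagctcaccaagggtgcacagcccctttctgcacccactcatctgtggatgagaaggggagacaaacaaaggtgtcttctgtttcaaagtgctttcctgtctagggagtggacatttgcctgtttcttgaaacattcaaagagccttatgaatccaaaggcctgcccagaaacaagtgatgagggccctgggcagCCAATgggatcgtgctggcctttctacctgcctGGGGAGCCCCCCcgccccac

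HLA-B, HLA-C and B2M held all 4 kinds of motif, which 0.0601% of the 34943 windows in the table did. TAP1 held the interferon regulatory factor core, kappaB and Y box letters, the last at the far end of its window. TAPBP held the core and kappaB letters, and CD74 the kappaB and Y box letters. Singly the motifs were common: 20.3% of all windows held the core, 9.95% kappaB, 32.0% the Y box and 21.2% the X2-type core. The HLA-B and HLA-C windows were alike in 226 of 254 alignment columns (89.0%). The motifs were chosen with the sequences in view, and a match describes letters and not a bound site. Whether these letters bear on how the genes moved was not tested.

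**Figure D1:**
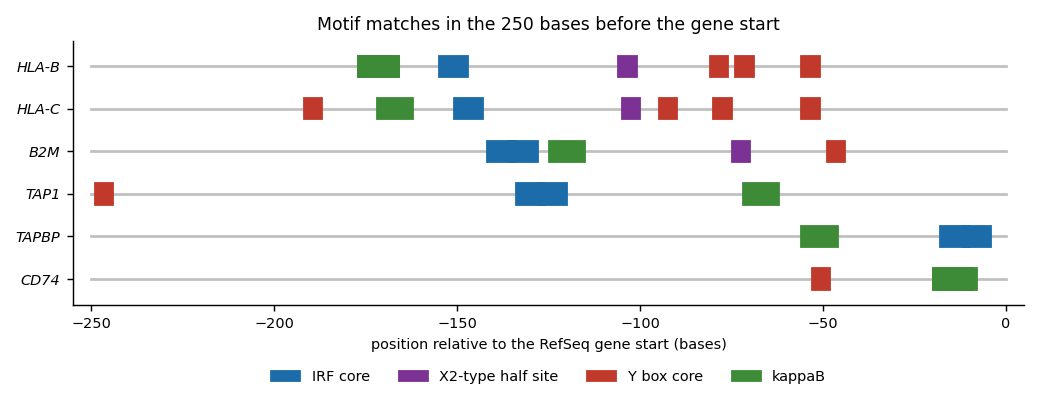
Motif matches in the 250 bases before the RefSeq start of 6 genes. The x axis gives the position relative to the start in bases, each grey line is 1 gene's window, and boxes are matches on either strand; HLA-B, HLA-C and B2M carry all 4 kinds, and the X2-type core is absent from the windows of TAP1, TAPBP and CD74.

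Levels are given as CPM, a gene's count as a share of its library's scaled total in millionths (TMM scaling corrects the totals for composition). Totals lay between 12794998 and 21200662 counts per library. The filter on low counts kept 14588 genes, with all 9 described here. A gene is called higher or lower where the adjusted p of edgeR's quasi-likelihood test is under 0.05, log2 fold changes carry their SE, and CPM means carry the SD with n = 4. The 3 lines carried 4 of 5 progenitor and leukemia markers at 1 CPM or more in every group (CD33, CD34, KIT and MECOM), while MPO stood at 1.14 CPM in treated TF-1 and lower elsewhere. MECOM was at 412 ± 14.7 CPM in vehicle UCSD-AML1 and at 13.0 ± 2.43 and 6.34 ± 0.739 CPM in vehicle TF-1 and UT-7. The summed level of 6 erythroid markers was lower in treated libraries of each line, at 6406 to 6831 CPM with vehicle and 3596 to 3852 CPM with cyclocreatine in TF-1, 5792 to 5921 and 4062 to 4396 CPM in UT-7, and 585 to 617 and 368 to 387 CPM in UCSD-AML1. Most of that drop was in TFRC, the transferrin receptor, which went from 5292 to 2370 CPM in TF-1, 3487 to 1965 CPM in UT-7 and 580 to 361 CPM in UCSD-AML1. The other markers did not all follow: in TF-1 2 of the 6 were called higher (HBG1 and HBG2, gamma globins) and 3 lower, against 0 and 4 in UT-7 and 0 and 3 in UCSD-AML1. The 5 megakaryocyte markers summed to 662 to 698 CPM with vehicle and 958 to 1058 CPM with cyclocreatine in TF-1, 907 to 948 and 1099 to 1128 CPM in UT-7, and 987 to 1065 and 815 to 825 CPM in UCSD-AML1. ITGA2B, an integrin chain, carried the rise in TF-1 (575 to 949.5 CPM) and UT-7 (894 to 1095 CPM), while ITGB3 and GP1BA were called lower in each line. The part of these markers in the results below was not tested. TF-1 cyclocreatine replicate 1 had the lowest TMM factor, 0.914, and its counts differed more from those of its group than in any other replicate pair. Results in TF-1 were computed with and without it.

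With cyclocreatine most of the 9 genes rose in TF-1 and UCSD-AML1, by less than 1.5-fold, and TAP1 fell in TF-1 and UT-7. In TF-1, 6 of 9 were called higher (HLA-B, HLA-C, HLA-E, B2M, CD74, HLA-DRA), TAP1 was called lower and TAPBP and CIITA did not pass, beside 56% of all genes tested called in either direction, 26.7% higher and 29.3% lower. In UT-7, HLA-B, HLA-E and HLA-DRA were called higher, TAP1 lower and 5 did not pass, beside 45.9% called, 22.5% higher and 23.3% lower. In UCSD-AML1, 7 were called higher and none lower, with TAP1 and TAPBP not passing, beside 40.5% called, 19.1% higher and 21.3% lower. The count lower in UCSD-AML1 was also 0 at an unadjusted edgeR p under 0.05, with DESeq2 and with limma-voom. HLA-B, HLA-E and HLA-DRA were thus called higher in each of the 3 lines. The share of all genes called higher in all 3 lines was not computed, so this count has no background beside it. The median log2 fold change of the 9 in TF-1, UT-7 and UCSD-AML1 was 0.28, 0.12 and 0.29, against -0.01, 0.00 and -0.00 over all genes tested. For the effect averaged over the 3 lines, 6 were called higher and TAP1 lower, beside 57.2% of all genes, 27.8% higher and 29.4% lower. Treated and vehicle libraries lay apart without overlap for 7 of the 9 in TF-1 (40.3% of all genes), for 3 in UT-7 (47.4%) and for 7 in UCSD-AML1 (44.2%). In UT-7 the 4 of 9 called lie close to the share of all genes.

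The share of higher calls among all calls depended on scaling in TF-1: it was 47.7% (3901 higher and 4272 lower) with TMM and 36.5% (3001 and 5225) with library totals alone. The member counts in the 3 lines did not change with either scaling alternative. Without TF-1 cyclocreatine replicate 1, 6 genes were again called higher and 1 lower in TF-1, with log2 fold changes of 0.44 for B2M, 0.52 for HLA-DRA, 0.33 for CD74 and -0.99 for TAP1. That library had the highest level of 7 of the 9 genes among the 4 treated TF-1 libraries, TAPBP and CIITA being the others.

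**Figure D2:**
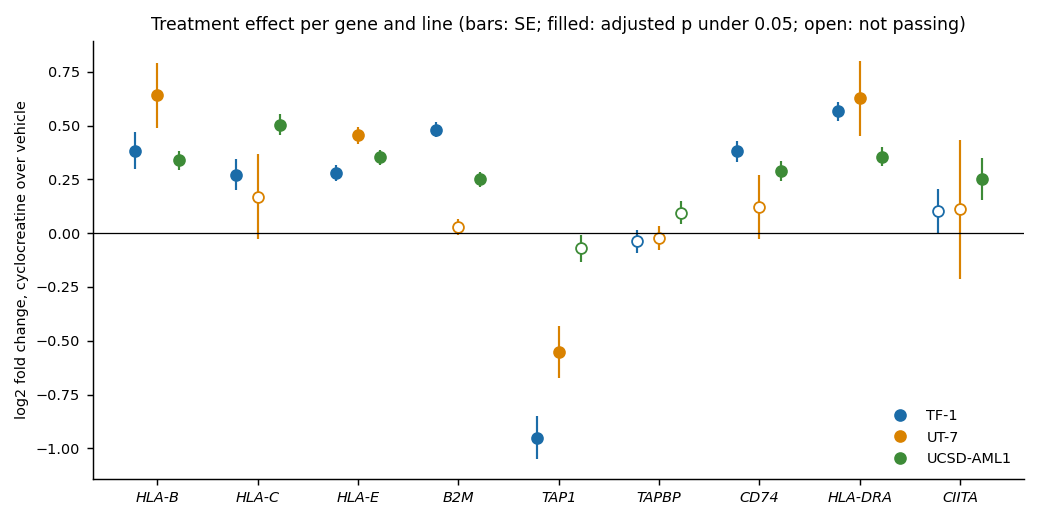
Effect of cyclocreatine on each of the 9 genes by line. The y axis is the log2 fold change of 4 treated over 4 vehicle libraries with its SE, filled points have an adjusted p under 0.05 and open points do not; TAP1 lies at -0.95, -0.55 and -0.07 in TF-1, UT-7 and UCSD-AML1, below the other genes in TF-1 and UT-7.

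Of the class I heavy chains, HLA-B and HLA-E rose in all 3 lines and HLA-C in TF-1 and UCSD-AML1. HLA-B, a classical heavy chain, stood in TF-1 at 9.14, 8.94, 7.33 and 7.79 CPM with vehicle and at 11.5, 11.3, 10.9 and 9.78 CPM with cyclocreatine. In UT-7 it stood at 2.26, 2.14, 1.97 and 2.98 CPM (31 to 40 counts) and at 3.38, 4.40, 2.96 and 3.77 CPM (41 to 57 counts). In UCSD-AML1 it stood at 530.2, 527, 478 and 489 CPM and at 626, 627, 653 and 652 CPM. All treated libraries lay above all vehicle libraries in TF-1 and UCSD-AML1, and in UT-7 the lowest treated library lay just under the highest vehicle library. HLA-B rose 1.30-fold in TF-1 (log2 0.38 ± 0.09, edgeR adjusted p = 0.000243) and 1.26-fold in UCSD-AML1 (0.34 ± 0.04, 2.75e-08). In UT-7 it rose 1.56-fold (0.64 ± 0.15, 0.000591).

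HLA-C, the heavy chain that many inhibitory receptors of natural killer cells read, stood in TF-1 at 23.1, 19.5, 22.6 and 16.8 CPM with vehicle and at 26.4, 25.2, 23.9 and 23.6 CPM with cyclocreatine. In UCSD-AML1 it stood at 173, 176, 167 and 164 CPM and at 229.5, 237, 252 and 247 CPM. The groups did not overlap in these lines, narrowly so in TF-1. In UT-7 the vehicle libraries stood at 1.62, 1.79, 1.97 and 1.94 CPM (23 to 31 counts) and the treated ones at 2.02, 2.24, 1.66 and 2.35 CPM (23 to 33 counts), and they overlapped. The log2 fold change was 0.27 ± 0.07 in TF-1 (edgeR adjusted p = 0.00116) and 0.50 ± 0.05 in UCSD-AML1 (1.52e-10), while 0.17 ± 0.20 in UT-7 did not pass (0.517). HLA-B and HLA-C are close paralogs and differ between people, so reads of one may have been counted to another or lost, and each line's alleles set how many. This limit bears on their levels between lines more than on treated against vehicle libraries of 1 line.

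HLA-E, a heavy chain of low diversity that presents leader peptides of other class I chains to natural killer cell receptors, rose in all 3 lines, with the smallest SEs of the 3 heavy chains. In TF-1 it stood at 268, 277, 259 and 265 CPM with vehicle and at 343, 315, 325 and 316 CPM with cyclocreatine. In UT-7 it stood at 104, 103, 102 and 106 CPM and at 145, 140.1, 136 and 149 CPM, and in UCSD-AML1 at 389.9, 399, 361 and 379 CPM and at 476, 476, 498 and 501 CPM. Every treated library lay above every vehicle library of its line. Folds were 1.21 (log2 0.28 ± 0.04, edgeR adjusted p = 2.5e-08), 1.37 (0.46 ± 0.04, 2.84e-12) and 1.28 (0.35 ± 0.04, 2.73e-10) in TF-1, UT-7 and UCSD-AML1. Averaged over the lines the log2 fold change was 0.36 ± 0.02.

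B2M, the light chain common to all class I molecules, rose in TF-1 and UCSD-AML1. It stood at 509, 549, 538 and 539.7 CPM in vehicle TF-1 and at 804, 719, 737 and 720.0 CPM in treated TF-1. UCSD-AML1 gave 1583, 1513, 1528 and 1569 CPM with vehicle and 1813, 1786, 1906 and 1858 CPM with cyclocreatine. These groups lay well apart. In UT-7 vehicle libraries gave 306, 294, 282 and 300.0 CPM and treated ones 307, 313, 284 and 302 CPM, which overlapped almost wholly. The log2 fold change was 0.48 ± 0.04 in TF-1 (1.40-fold, edgeR adjusted p = 4.12e-14), 0.25 ± 0.04 in UCSD-AML1 (1.19-fold, 3.83e-07) and 0.03 ± 0.04 in UT-7 (0.595).

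TAP1, a subunit of the peptide transporter, was the only one of the 9 called lower in any line. In TF-1 it stood at 10.6, 11.4, 8.997 and 11.4 CPM with vehicle and at 5.95, 5.24, 5.64 and 5.14 CPM with cyclocreatine. UT-7 gave 6.62, 5.45, 5.58 and 6.41 CPM (79 to 94 counts) with vehicle and 4.10, 4.70, 4.18 and 3.41 CPM (48 to 61 counts) with cyclocreatine. All treated libraries lay below all vehicle libraries in both lines. In UCSD-AML1, vehicle libraries gave 54.8, 53.9, 49.5 and 52.1 CPM and treated ones 49.4, 49.2, 50.9 and 51.0 CPM, and the ranges overlapped. TAP1 fell 1.93-fold in TF-1 (log2 -0.95 ± 0.10, edgeR adjusted p = 1.89e-10) and 1.47-fold in UT-7 (-0.55 ± 0.12, 0.000251), and its change of -0.07 ± 0.06 in UCSD-AML1 did not pass (0.406).

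TAPBP, which encodes tapasin, did not pass in any line. It stood at 199.9, 202, 191 and 205 CPM in vehicle TF-1 and at 197, 189.6, 197 and 193 CPM in treated TF-1. UT-7 gave 133, 133, 133 and 128 CPM with vehicle and 125, 125, 151 and 117 CPM with cyclocreatine, and UCSD-AML1 149, 169.9, 167 and 141 CPM and 165, 162, 172 and 169 CPM. Treated and vehicle ranges overlapped in every line. Log2 fold changes were 0.09 ± 0.05 in UCSD-AML1 (edgeR adjusted p = 0.168), -0.02 ± 0.06 in UT-7 (0.785) and -0.04 ± 0.05 in TF-1 (0.568).

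Of the class II genes, HLA-DRA, the alpha chain of HLA-DR, rose in all 3 lines. In TF-1 it stood at 114, 118, 115 and 111 CPM with vehicle and at 185, 164, 163 and 165 CPM with cyclocreatine. In UT-7 it was barely transcribed, at 1.55, 1.17, 1.52 and 1.86 CPM (17 to 25 counts) with vehicle and 2.59, 1.93, 2.09 and 2.77 CPM (25 to 39 counts) with cyclocreatine. UCSD-AML1 gave 97.8, 91.5, 89.2 and 91.6 CPM and then 116, 118, 119 and 121 CPM. Treated libraries lay above vehicle libraries without overlap in each line, by a small margin in UT-7. The log2 fold change was 0.36 ± 0.05 in UCSD-AML1 (1.28-fold, edgeR adjusted p = 6.64e-08), 0.63 ± 0.17 in UT-7 (1.54-fold, 0.00441) and 0.57 ± 0.05 in TF-1 (1.48-fold, 1.91e-13).

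CD74, the invariant chain, rose in the lines where it was well expressed. TF-1 gave 149.5, 150.1, 152 and 157 CPM with vehicle and 218, 184, 196 and 195 CPM with cyclocreatine. UCSD-AML1 gave 506, 510.0, 477 and 478 CPM and 594, 594, 611 and 609 CPM. Neither line had overlapping groups. UT-7 gave 2.11, 3.73, 4.06 and 4.10 CPM (30 to 64 counts) and 3.74, 4.32, 3.10 and 4.12 CPM (43 to 58 counts), and there the groups overlapped. The log2 fold change was 0.38 ± 0.05 in TF-1 (edgeR adjusted p = 1.97e-08), 0.29 ± 0.05 in UCSD-AML1 (2.74e-06) and 0.12 ± 0.15 in UT-7 (0.549).

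CIITA, the class II coactivator, did not pass in TF-1 or UT-7 and passed narrowly in UCSD-AML1. It stood at 13.99, 12.1, 14.5 and 12.3 CPM in vehicle TF-1 and at 12.7, 16.0, 13.99 and 14.3 CPM in treated TF-1, with overlapping groups (log2 0.10 ± 0.10, edgeR adjusted p = 0.4004). UT-7 held only 8 to 13 counts per vehicle library and 4 to 16 per treated library, or 0.775, 0.552, 0.635 and 0.970 CPM and 0.936, 1.23, 0.288 and 0.711 CPM, and a change was not detectable at this depth (0.11 ± 0.32, 0.825). UCSD-AML1 gave 16.0, 15.02, 14.7 and 15.6 CPM with vehicle and 18.0, 19.8, 16.6 and 18.7 CPM with cyclocreatine. These did not overlap, and the log2 fold change of 0.25 ± 0.10 passed (0.0376). The call was lost without any 1 of 7 of the 8 UCSD-AML1 libraries, with adjusted p-values from 0.0508 (without vehicle replicate 1) to 0.136 (without treated replicate 2), the exception being treated replicate 3.

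Markers of cell types that carry class II molecules were looked up beside these results. The summed level of 5 B cell markers went from 82.9 to 90.8 CPM in vehicle UCSD-AML1 to 95.1 to 98.5 CPM in treated UCSD-AML1 (CD79A, CD79B and PAX5 at 1 CPM or more), and MS4A1 was at 0 in all 6 groups. In UCSD-AML1 the members moved apart: CD79B was called higher (37.8 to 47.2 CPM) and PAX5 lower (12.8 to 8.20 CPM). In TF-1 the sums were 11.8 to 13.8 and 13.1 to 21.4 CPM, and in UT-7 3.74 to 4.03 and 4.25 to 5.55 CPM. The 7 monocyte, macrophage and dendritic markers summed to 20.3 to 23.5 and then 17.0 to 20.6 CPM in TF-1, to 14.03 to 15.8 and then 17.4 to 19.5 CPM in UT-7, and to 363 to 378 and then 349 to 353 CPM in UCSD-AML1. These sums followed single genes: in UT-7 ITGAX was called higher (12.1 to 17.1 CPM) and CLEC9A lower (2.15 to 0.470 CPM), and in UCSD-AML1 CSF1R stood at 320.1 and 320.9 CPM while CLEC9A was called lower (49.0 to 28.6 CPM). The part of these markers in the HLA-DRA and CD74 results was not tested. In bulk libraries, fewer cells that carry a transcript and less of it per cell cannot be told apart.

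**Figure D3:**
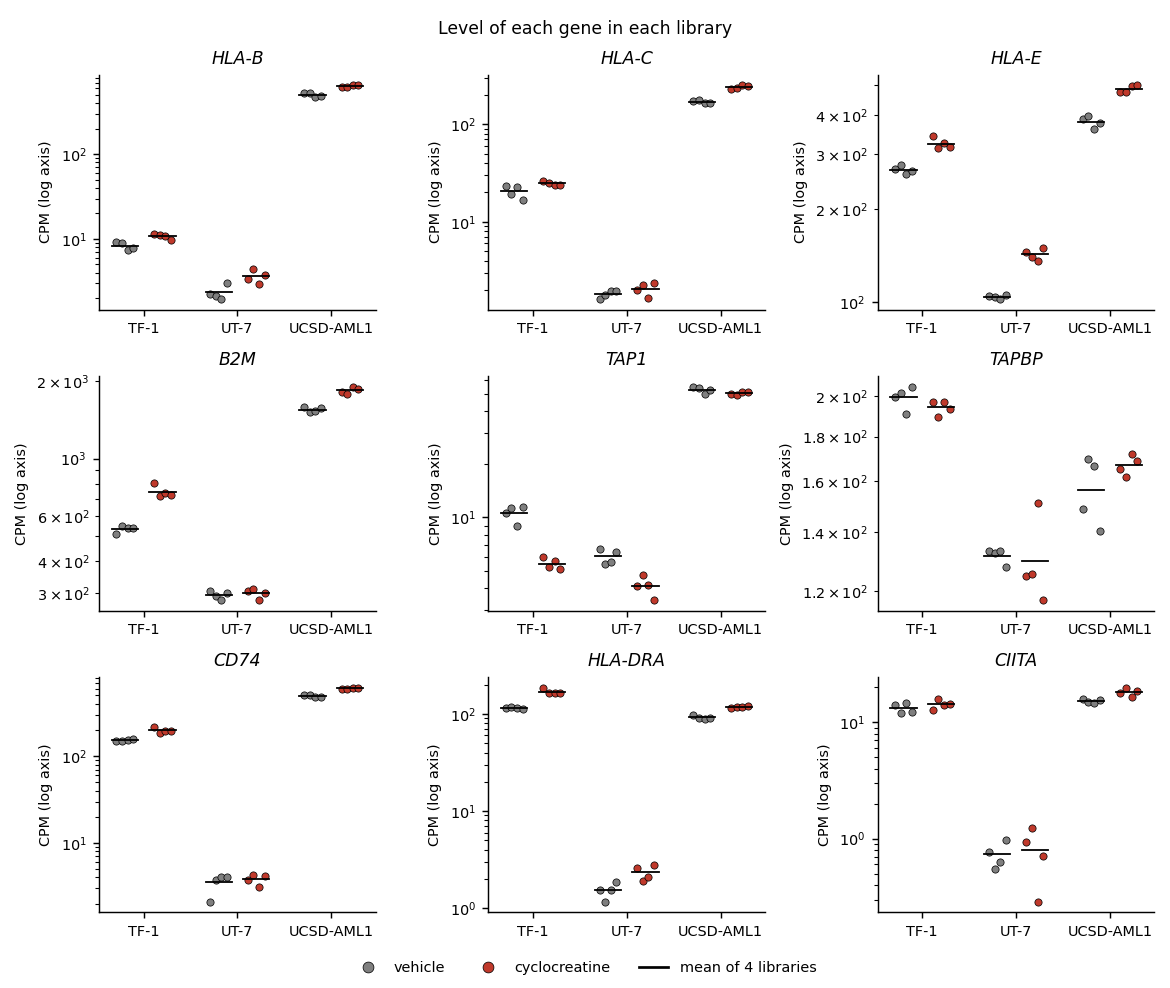
Level of each of the 9 genes in every library. The y axis is CPM on a log axis, grey points are vehicle and red points cyclocreatine libraries, 4 per group, and bars are group means. HLA-E and HLA-DRA lie higher with cyclocreatine in each line, and TAP1 lies lower in TF-1 and UT-7. Among the vehicle groups, all 9 genes are lowest in UT-7.

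The size of the effect differed between lines for 5 of the 9 genes. Each pair of lines was compared by the difference of their log2 fold changes in edgeR, 27 tests in all over the 9 genes, of which 8 passed. Among all genes, 27.5% passed for TF-1 against UT-7, 29.1% for TF-1 against UCSD-AML1 and 23% for UT-7 against UCSD-AML1. The 8 of 27 lie close to these shares. B2M differed in all 3 pairs: its effect was larger in TF-1 than in UT-7 by 0.45 ± 0.05 (adjusted p = 1.92e-08) and than in UCSD-AML1 by 0.23 ± 0.05 (0.000532), and UT-7 minus UCSD-AML1 was -0.22 ± 0.05 (0.00123). TAP1 differed from UCSD-AML1 in TF-1 by -0.88 ± 0.12 (2.74e-07) and in UT-7 by -0.48 ± 0.14 (0.00817). Between TF-1 and UT-7 the TAP1 difference of -0.40 ± 0.16 did not pass (0.0592), and it passed without any 1 of 4 libraries (TF-1 vehicle replicate 3, TF-1 treated replicate 1, UT-7 vehicle replicate 1, UT-7 treated replicate 4) and with library totals (0.0332).

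HLA-E rose less in TF-1 than in UT-7, by -0.17 ± 0.05 (edgeR adjusted p = 0.0128), which was 0.0526 with only these groups in the fit. HLA-DRA rose more in TF-1 than in UCSD-AML1, by 0.21 ± 0.06 (0.0126), which was 0.102 with library totals. HLA-C rose less in TF-1 than in UCSD-AML1, by -0.23 ± 0.09 (0.0399), and that call was lost without any 1 of 8 libraries, with adjusted p-values up to 0.160 (without TF-1 vehicle replicate 1). Those 8 were vehicle replicates 1 and 3 and treated replicates 3 and 4 of TF-1, and vehicle replicates 3 and 4 and treated replicates 3 and 4 of UCSD-AML1. By pair, 2 of 9 passed for TF-1 against UT-7, 4 of 9 for TF-1 against UCSD-AML1 and 2 of 9 for UT-7 against UCSD-AML1. All genes gave 27.5% (14.3% higher and 13.2% lower), 29.1% (14.8% and 14.3%) and 23% (11.5% each way). Among all genes, the share of differences called higher fell from 52.1% to 41.5% for TF-1 minus UT-7 with library totals (2089 higher and 1922 lower against 1637 and 2312), and from 50.8% to 32.5% for TF-1 minus UCSD-AML1 (2156 and 2086 against 1329 and 2766). HLA-B, TAPBP, CD74 and CIITA passed in no pair of lines. TAPBP passed for UT-7 minus UCSD-AML1 without treated UT-7 replicate 3 (0.0285) and CD74 for TF-1 minus UT-7 without vehicle UT-7 replicate 1 (0.0197), and with library totals TAPBP (0.0326) and HLA-E (0.0170) passed for TF-1 minus UCSD-AML1.

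Within a library the ratio of counts of a gene pair does not depend on scaling. HLA-E over B2M went from a mean of 0.501 (0.482 to 0.526) in vehicle TF-1 to 0.436 (0.427 to 0.441) with cyclocreatine, and from 0.352 (0.341 to 0.363) to 0.473 (0.448 to 0.495) in UT-7. The ratio thus moved in opposite directions in these lines without overlap, while in UCSD-AML1 it went from 0.247 (0.236 to 0.264) to 0.265 (0.261 to 0.270), with overlap. TAP1 over TAPBP went from 0.0530 (0.0471 to 0.0563) to 0.0283 (0.0266 to 0.0302) in TF-1, from 0.0457 (0.0411 to 0.0502) to 0.0318 (0.0276 to 0.0375) in UT-7 and from 0.338 (0.297 to 0.371) to 0.300 (0.296 to 0.303) in UCSD-AML1. Only the UCSD-AML1 ranges of that ratio overlapped. HLA-DRA over CD74 went from 0.752 (0.706 to 0.785) to 0.854 (0.834 to 0.889) in TF-1, without overlap. In UT-7 it went from 0.469 (0.315 to 0.733) to 0.621 (0.446 to 0.692), with overlap, and in UCSD-AML1 from 0.188 (0.179 to 0.193) to 0.197 (0.195 to 0.199), apart by a smaller margin than in TF-1. HLA-B over B2M rose without overlap in UT-7 (0.00697 to 0.00994, then 0.0104 to 0.0141) and overlapped in TF-1 and UCSD-AML1. HLA-C over B2M rose without overlap in UCSD-AML1 (0.105 to 0.116, then 0.127 to 0.133) and overlapped in TF-1 and UT-7.

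**Figure D4:**
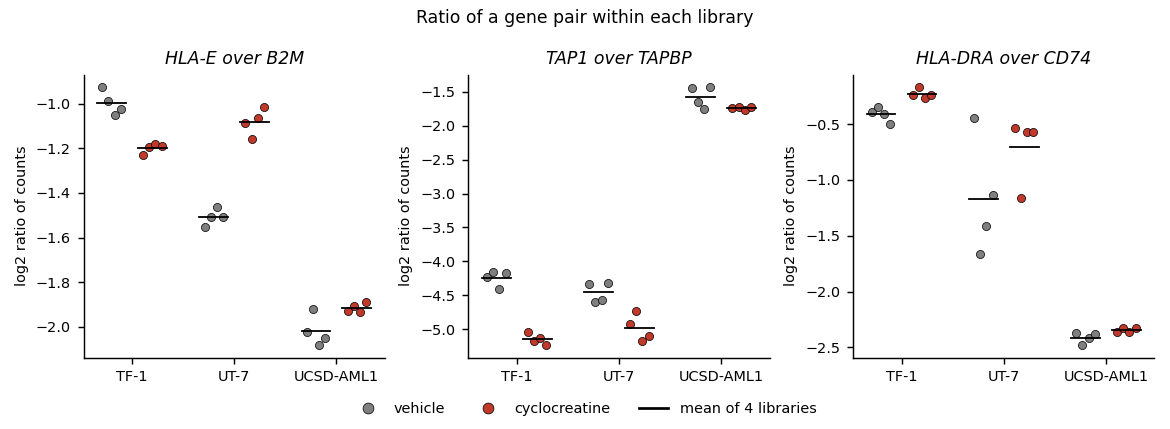
Ratios of 3 gene pairs within each library. The y axis is the log2 ratio of the 2 genes' counts, grey points are vehicle and red points cyclocreatine libraries, 4 per group, and bars are means; HLA-E over B2M is lower with cyclocreatine in TF-1 and higher in UT-7, and TAP1 over TAPBP is lower in both.

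For each of the 9 genes the gap between vehicle UT-7 and vehicle UCSD-AML1 was larger than its change with cyclocreatine in any line. This did not hold for every pair of lines: the TF-1 change exceeded the gap between TF-1 and UT-7 for TAP1 (1.93-fold and 1.76-fold) and the gap between TF-1 and UCSD-AML1 for HLA-DRA (1.48-fold and 1.24-fold), and the UCSD-AML1 change in CIITA (1.19-fold) exceeded its gap to TF-1 (1.16-fold). Among vehicle libraries all 9 genes were lower in UT-7 than in TF-1 and than in UCSD-AML1, beside 79.7% and 81.5% of all genes called in either direction, 41% higher in TF-1 than in UT-7 and 41.5% lower in UT-7 than in UCSD-AML1. The gap between UT-7 and UCSD-AML1 was 218-fold for HLA-B, 140.2-fold for CD74, 92.4-fold for HLA-C, 60.5-fold for HLA-DRA and 20.9-fold for CIITA. It was 8.75-fold for TAP1, 5.24-fold for B2M, 3.68-fold for HLA-E and 1.19-fold for TAPBP (edgeR adjusted p = 9.26e-05, the largest of the 9). UT-7 thus had little transcript of the classical heavy chains and of class II, while B2M at 296 ± 10.1 CPM, HLA-E at 104 ± 1.31 CPM and TAPBP at 132 ± 2.67 CPM were well above the level of a few counts.

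TF-1 stood between the other lines for most of the genes. TF-1 was lower than UCSD-AML1 for HLA-B (61.1-fold), HLA-C (8.30-fold), TAP1 (4.97-fold), CD74 (3.23-fold), B2M (2.90-fold) and HLA-E (1.43-fold), and higher for TAPBP (1.27-fold) and HLA-DRA (1.24-fold), beside 84% of all genes called. CIITA stood at 13.2 ± 1.22 CPM in vehicle TF-1 and 15.3 ± 0.582 CPM in vehicle UCSD-AML1 and did not pass (edgeR adjusted p = 0.0505), though it passed with library totals (0.0224), with limma-voom (0.0350) and without any 1 of 8 libraries (0.0277 to 0.0493). The HLA-B and HLA-C differences between lines carry the limit on alleles and paralogs given above. The B cell and the monocyte, macrophage and dendritic markers were also highest in UCSD-AML1, at the sums given above, and their part in the line differences was not tested.

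Ordered by mean level, the groups ran from UT-7 through TF-1 to UCSD-AML1, each vehicle group before its treated group, for HLA-B, HLA-C, HLA-E, B2M, CD74 and CIITA. Neighbours that overlapped in this order were the UT-7 groups for HLA-B, HLA-C, B2M, CD74 and CIITA, and for CIITA also treated against vehicle TF-1 and treated TF-1 against vehicle UCSD-AML1. HLA-DRA ran from vehicle and treated UT-7 (1.53 ± 0.283 and 2.35 ± 0.401 CPM) over vehicle UCSD-AML1 (92.5 ± 3.67), vehicle TF-1 (114 ± 2.74) and treated UCSD-AML1 (119 ± 2.31) to treated TF-1 (169 ± 10.4), and vehicle TF-1 overlapped treated UCSD-AML1. TAP1 was lowest in treated UT-7 (4.10 ± 0.531 CPM), followed by treated TF-1 (5.49 ± 0.372) and vehicle UT-7 (6.02 ± 0.588), which overlapped, then vehicle TF-1 (10.6 ± 1.13) and both UCSD-AML1 groups, which overlapped. TAPBP had the narrowest range, from 129.7 ± 14.9 CPM in treated UT-7 to 199 ± 6.07 CPM in vehicle TF-1.

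Levels of different genes can be set side by side only per length, here as CPM per kilobase of the longest protein-coding transcript in GENCODE 29. On that scale B2M led in the vehicle groups, at 908 for UCSD-AML1, 313 for TF-1 and 173 for UT-7. In UCSD-AML1 CD74 at 340.1 and HLA-B at 327 came next, followed by HLA-E at 147 and HLA-C at 109, whereas in TF-1 HLA-E at 103 was far above HLA-C at 13.2 and HLA-B at 5.36. UT-7 had HLA-E at 39.95 and both classical chains at 1.51 or less. TAPBP exceeded TAP1 per length in each line, by 53.1 to 3.58 in TF-1, 35.04 to 2.03 in UT-7 and 41.6 to 17.8 in UCSD-AML1. CD74 and HLA-DRA were near each other in TF-1 (105 and 89.4), and CD74 exceeded HLA-DRA in UCSD-AML1 (340.1 and 72.3).

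The other genes of the pathway were described in 5 lists drawn up by function, whose counts stand beside 56%, 45.9% and 40.5% of all genes tested called in either direction in TF-1, UT-7 and UCSD-AML1. Several counts lay near that background, such as the UT-7 counts of the class I list and of the transcription regulators below. Of 9 other class I heavy chain and class I-like genes, 8 were tested, and 5 were called higher and 2 lower in TF-1, 2 and 2 in UT-7, and 5 and 1 in UCSD-AML1 (median log2 fold change 0.38, 0.08 and 0.42). MICA, a stress-induced ligand of the receptor NKG2D, was called higher in all 3 lines (log2 0.97, 0.45 and 0.49). MICB, its paralog, was called lower in TF-1 (-0.55) and passed in neither UT-7 (-0.16) nor UCSD-AML1 (0.11). MR1, which presents vitamin B metabolites to MAIT cells, was called lower in all 3 (-0.68, -0.43 and -0.56).

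All 14 genes of peptide supply and loading other than TAP1 and TAPBP were tested. In TF-1 5 were called higher and 8 lower, in UT-7 3 and 6, and in UCSD-AML1 3 and 5 (median log2 fold change -0.16, -0.12 and -0.07). ERAP1, the aminopeptidase that trims peptides in the endoplasmic reticulum, was called lower in all 3 lines (-0.19, -0.31 and -0.24), as was PSME3, a proteasome activator subunit (-0.33, -0.31 and -0.11). PSMB8, a subunit of the immunoproteasome, was called lower in TF-1 (39.2 ± 2.78 to 26.8 ± 4.29 CPM, log2 -0.54, edgeR adjusted p = 2.81e-08) and UT-7 (18.3 ± 1.55 to 10.5 ± 0.481 CPM, -0.81, 4.03e-09) and did not pass in UCSD-AML1 (139 ± 3.25 to 135 ± 5.22 CPM, -0.04, 0.667). NPEPPS, a cytosolic aminopeptidase, was called lower in TF-1 (-0.34) and UT-7 (-0.22) and did not pass in UCSD-AML1 (-0.09, 0.0669). PSMB9, another immunoproteasome subunit, whose RefSeq start lies 488 bases from that of TAP1 on the opposite strand, went from 3.32 ± 0.967 to 0.886 ± 0.436 CPM in TF-1 (-1.97, 4.28e-09), and changed by -0.12 in UT-7 (0.838) and 0.09 in UCSD-AML1 (0.500). PSMB10, a further immunoproteasome subunit, was called higher in TF-1 (0.23, edgeR adjusted p = 0.0141) and UCSD-AML1 (0.25, 0.0048). PSMB10 did not pass in UT-7 (0.10, 0.326). TAP2, the partner of TAP1 in the transporter, was called higher in TF-1 (0.19, 0.00602) and UCSD-AML1 (0.24, 0.000338). TAP2 did not pass in UT-7 (0.11, 0.126). PSMB9, PSMB10 and TAP2 were named after their values were seen. Strand use in counting is not given in the sources, so reads where genes overlap cannot be assigned with certainty.

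Of 13 other class II genes, 11 were tested. In TF-1 7 were called higher and 2 lower, in UT-7 none higher and 2 lower, and in UCSD-AML1 4 higher and 1 lower (median log2 fold change 0.42, -0.41 and 0.21). The count higher in UT-7 was also 0 at an unadjusted edgeR p under 0.05 and with DESeq2, and 1 with limma-voom. In vehicle UT-7 most of the 11 stood under 1 CPM, such as HLA-DRB1 (0.451 ± 0.136) and HLA-DPA1 (0.848 ± 0.153), so their changes were hardly measurable. The 2 called lower in UT-7 were CTSS (40.7 CPM with vehicle) and LGMN (0.971 CPM), and CTSS gave the median of -0.41. HLA-DMB, a chain of the peptide editor HLA-DM, was called higher in TF-1 (0.95) and UCSD-AML1 (0.89), and its partner chain HLA-DMA was called lower in TF-1 (-0.46) and did not pass in UCSD-AML1 (-0.00). HLA-DOB, a chain of the HLA-DM inhibitor HLA-DO, was called lower in TF-1 (-0.58) and UCSD-AML1 (-0.67). IFI30, a lysosomal thiol reductase, was called higher in UCSD-AML1 (0.33, edgeR adjusted p = 0.000723) and did not pass in TF-1 (-0.06) or UT-7 (0.15).

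Among 12 transcription regulators of HLA genes other than CIITA, 4 were called higher and 4 lower in TF-1, 2 and 3 in UT-7, and 3 and 3 in UCSD-AML1 (median log2 fold change 0.04, -0.02 and -0.15). RFX5 and RFXAP, subunits of the RFX complex that binds the X box, moved in opposite directions in all 3 lines. RFX5 was called higher, with log2 fold changes of 0.66, 0.65 and 0.49 in TF-1, UT-7 and UCSD-AML1, and RFXAP was called lower (-0.76, -0.84 and -0.59). NFYA and NFYB, subunits of the factor that binds the Y box, did likewise, with NFYA called higher (0.70, 0.47 and 0.22) and NFYB lower (-0.39, -0.47 and -0.37). Of 13 interferon signalling genes, 2 were called higher and 7 lower in TF-1, 6 and 5 in UT-7, and 3 and 2 in UCSD-AML1 (median -0.27, -0.09 and -0.02). IFNAR1, a type I interferon receptor chain, was called higher in all 3 (0.27, 0.23 and 0.15), and the kinase JAK1 was called higher in TF-1 (0.22) and UT-7 (0.36). The kinase JAK2 was called lower in TF-1 (-0.34) and UT-7 (-0.12), and the signalling inhibitor SOCS3 lower in TF-1 (-0.38) and UT-7 (-1.16) and higher in UCSD-AML1 (0.35).

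**Figure D5:**
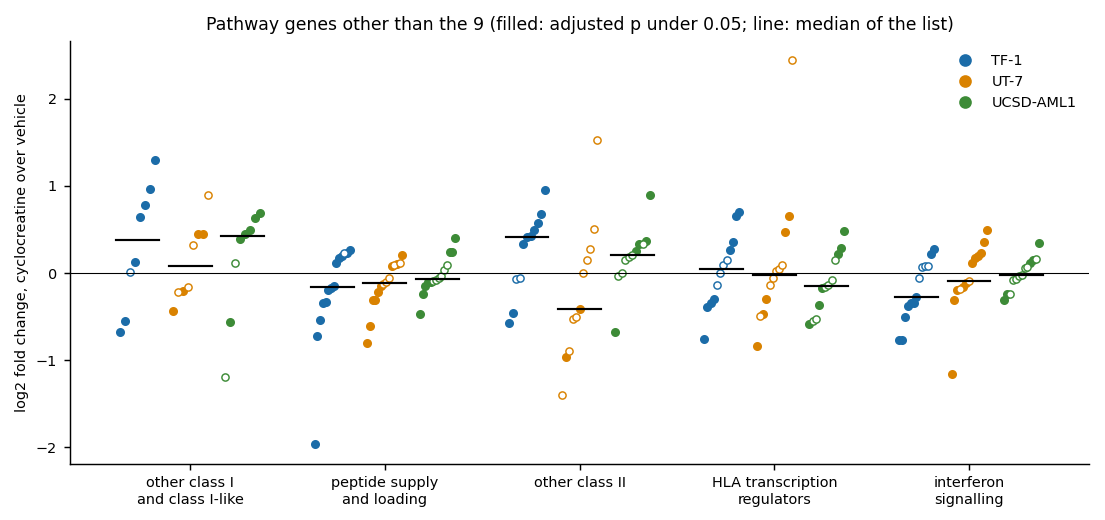
Effect of cyclocreatine on the tested genes of the 5 pathway lists, other than the 9. The y axis is the log2 fold change of treated over vehicle libraries, each point is 1 gene in 1 line, filled points have an adjusted p under 0.05, and black lines are list medians; the median of peptide supply and loading lies below 0 in each line and that of other class I genes above 0.

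Likeness of pattern was measured as the root mean square difference between a gene's 6 group means of log2 CPM, with a prior count of 2, each taken about its own mean, and those of 14067 other genes. The nearest genes to TAPBP were IFT46 (0.04) and CCPG1 (0.05), and those to HLA-E were STIM2 (0.10) and LTA4H (0.10). B2M lay near RAB32 (0.13), HLA-DRA near FKBP10 (0.30), and TAP1 near GPRC5C (0.11), which went from 7.03 to 3.37 CPM in TF-1 and from 3.68 to 2.18 CPM in UT-7 with cyclocreatine. The other nearest genes were under 1 CPM in at least 1 group, where the prior count flattens differences, so their distances are not given: FAM225B for B2M, PWARSN for TAP1, LOC730102 for HLA-DRA, ME3 and TFEB for CIITA, GP9 and CITED4 for CD74, RETN and CDK18 for HLA-C, and ZNF503-AS1 and VCAN for HLA-B. Among the 9 themselves, HLA-E and B2M were the closest pair, at 0.40. These distances describe 6 group means, are dominated by the differences between lines and carry no test.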

How the data were processed

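Gene counts of 24 libraries were analysed, 4 for each of 3 lines with cyclocreatine or vehicle. Each library has 1 file of raw counts deposited by the authors, in whole numbers per RefSeq symbol. RSEM, TopHat2 and FastQC and the builds hg19 and GRCh37 appear in the submitters' processing notes; versions, roles and strand use: not given in the sources used here. Groups were taken from the labels. Counts of the 36 replicate pairs differed by more than counting noise (chi-square per degree of freedom 1.29 to 19.3), so no library was counted as a copy. The highest values, 15.8 to 19.3, were those of TF-1 cyclocreatine replicate 1 with the other treated TF-1 libraries. No other pair exceeded 4.04.

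Counts were filtered with filterByExpr (minimum count 10), which left 14588 genes, scaled by TMM and fitted over 6 group means with edgeR 4.0.16 (robust quasi-likelihood, R 4.3.3). Contrasts were the effect in each line, its mean, the differences between lines, and the vehicle groups between lines. P-values were two-sided, adjusted by Benjamini-Hochberg over all genes tested, and genes under 0.05 were called. SEs were derived from F and the log2 fold change. The median biological coefficient of variation was 0.0578. The scripts were tested on simulated data. Alternatives were DESeq2 1.42.0, limma-voom (limma 3.58.1), other scalings, no filter, smaller fits, a replicate block and each library left out. The genes described, the pathway lists and the markers were chosen with earlier results of these data known. From each list up to 4 genes with the smallest p in the mean effect and at least 1 CPM in a group were named, and the 2 nearest genes by pattern. A gene this rule names is counted in its list and not reported here by itself. Same-numbered treated and vehicle libraries were not treated as pairs. Promoters came from RefSeq, transcript lengths from GENCODE 29; these follow GRCh38, and the counts GRCh37.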

Additional observations from a re-analysis of the deposited data

Results flagged for a closer look

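The differences between lines that passed the test of the difference itself were, on the log2 scale, B2M in TF-1 minus UT-7 (0.45), TF-1 minus UCSD-AML1 (0.23) and UT-7 minus UCSD-AML1 (-0.22), TAP1 in TF-1 minus UCSD-AML1 (-0.88) and UT-7 minus UCSD-AML1 (-0.48), HLA-E in TF-1 minus UT-7 (-0.17), HLA-DRA in TF-1 minus UCSD-AML1 (0.21) and HLA-C in TF-1 minus UCSD-AML1 (-0.23). The 2 groups of libraries in which 1 library stood far from the other 3 were TAPBP in vehicle UT-7, where replicate 4 was at 128 CPM below 3 libraries at 133 CPM, and HLA-DRA in treated TF-1, where replicate 1 was at 185 CPM above 3 libraries at 163 to 165 CPM. In all, 54 groups of 4 were examined this way, and chance alone gives about 1 in 20. Without TF-1 cyclocreatine replicate 1, HLA-DRA was still called higher in TF-1, with a log2 fold change of 0.52.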

How the results depend on the processing

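The counts of genes called higher and lower in each line and for the mean effect stayed within 1.5 times under every alternative run, and so did the counts between vehicle groups. Leaving out 1 library at a time kept 6 higher and 1 lower in TF-1, 3 and 1 in UT-7, and 6 to 7 higher in UCSD-AML1. Counts of differences between lines moved. For TF-1 minus UT-7, 1 gene was called lower, 2 with library totals and 0 with only these groups in the fit; over single libraries left out, 1 to 2 were called higher and 1 to 2 lower. For TF-1 minus UCSD-AML1, 2 were called higher and 2 lower: library totals gave 1 and 4, and limma-voom, the fit of only these groups and the replicate block gave 1 lower each, as did 8 of the single libraries left out (1 to 2). All genes called higher in that difference fell from 2156 to 1329 with library totals. The alternative with only the groups concerned was not run for the mean effect, which uses all groups.

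Over all alternatives, 2711 log2 fold changes of the 9 genes kept direction and call, 21 lost the call, 19 gained it and 30 changed direction. Direction changed only for values that did not pass: with library totals, B2M in UT-7 (-0.0105), TAPBP in the mean effect (-0.0296) and HLA-B in TF-1 minus UCSD-AML1 (-0.0277); CIITA in UT-7 with limma-voom (-0.0227); CIITA in TF-1 minus UT-7 with no filter (0.0023), limma-voom (0.12), only these groups (0.0164) and the replicate block (0.0134); and TAPBP in TF-1 minus UT-7 with only these groups (0.0077). With single libraries left out, the ranges that crossed 0 were, in UT-7, TAPBP -0.10 to 0.0235, CD74 -0.0553 to 0.21 and CIITA -0.17 to 0.39; TAPBP in the mean effect -0.0137 to 0.0267; in TF-1 minus UT-7, TAPBP -0.0604 to 0.0623, HLA-DRA -0.16 to 0.0459 and CIITA -0.29 to 0.27; HLA-B in TF-1 minus UCSD-AML1 -0.0095 to 0.10; and CIITA in UT-7 minus UCSD-AML1 -0.42 to 0.14. Why they moved was not tested.

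Same-numbered treated and vehicle libraries correlated at -0.199 to 0.0982 over 12 pairs. Of 12 vehicle libraries, 2 were closest to the treated library of their own number. No pairing by number was seen, but deviations from means of 4 libraries could miss a weak one. With the replicate block, CIITA in UCSD-AML1 (0.25, edgeR adjusted p = 0.0612) and HLA-C in TF-1 minus UCSD-AML1 (-0.22, 0.0583) no longer passed, and no other call on the 9 genes was lost. In UT-7, HLA-B, HLA-C, CD74, HLA-DRA and CIITA rest on 4 to 64 counts per library, which widens their SE.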
